A study of Mus musculus with 6 samples.

Results

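The insulin-like growth factor (IGF) genes were followed in whole mouse kidneys at postnatal day 13, in 3 Control kidneys and 3 kidneys with Tfrc, the gene of the transferrin receptor TfR1, targeted in the nephron lineage. Members were taken by name from the 24422 genes of the deposited tables: the ligands Igf1 and Igf2, the receptors Igf1r and Igf2r, and the binding protein genes Igfbp1, Igfbp2, Igfbp3, Igfbp4, Igfbp5 and Igfbp7, 10 in all. All 6 libraries came from C57BL/6 mice on an iron-sufficient diet (220 ppm iron). The Control genotype is given as wild type, and that of the TfR1 knockout kidneys as Tfr1f/f;SixCre. Tfrc carries floxed exons in the knockout, and the Six2Cre transgene acts in nephron progenitors and their descendants, so stroma, endothelium and collecting duct lie outside its lineage. The study describes cells that escaped the deletion and were found in tubules at this age. The Control label names no Cre, so an effect of the transgene and an effect of the deletion cannot be told apart.

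IGF-1 and IGF-2 are secreted growth factors that signal through the tyrosine kinase receptor encoded by Igf1r. The product of Igf2r carries mannose 6-phosphate-tagged enzymes to lysosomes and takes up and degrades IGF-2. The IGF binding proteins hold the ligands in blood and tissue, and proteases such as the pappalysins release the ligands by cutting them. IGFBP-7 binds IGFs weakly and is often grouped with the family as a related protein. In kidney, IGF-1 is known for its part in growth and filtration after birth, while Igf2 is mainly a fetal, imprinted gene.

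Total gene counts ran from 16591156 to 22898008 per library. Tfrc itself had 3667 to 6485 normalized counts in Control and 4045 to 6976 in TfR1 knockout kidneys. The groups overlapped, and this count covers all exons and not only the floxed ones, so it does not check the labels. Control replicate 3 stood apart in its marker genes: its summed stroma markers were 99552 normalized counts, against 49949 and 48043 in the other Control kidneys, and its summed thick ascending limb markers were 51175, against 102912 and 115639. The study counts its sequenced samples as separate mice, with littermate wild type controls, and the labels give no animal numbers.

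Of the 10 members, 1 was higher and 3 were lower in TfR1 knockout kidneys. Igf1 fell 3.99-fold and Igfbp2 3.30-fold, Igfbp5 fell 1.69-fold, and Igf2r rose 1.5-fold. Igf2, Igf1r, Igfbp1, Igfbp3, Igfbp4 and Igfbp7 did not pass the test. The test was DESeq2's Wald test on raw counts, adjusted over all 16509 genes tested, with an adjusted p under 0.05 as the threshold. Over all genes tested, 7.74% passed as higher and 7.18% as lower. The members' median log2 fold change was -0.15, beside 0.0071 over all genes tested. By the stricter edgeR quasi-likelihood test, 0 members passed as higher and 2 as lower (Igf1 and Igfbp2), where 3.22% and 2.80% of all genes passed. At an unadjusted p under 0.05, edgeR had 1 member higher and 4 lower, where 12.8% and 13.0% of all genes were past it. DESeq2 had 2 members higher and 4 lower (13.8% and 13.5% of all genes), and limma-voom 1 and 4 (12.3% and 13.7%). In 6 of the 10 members the 2 groups did not overlap, and this was so for 33.7% of all genes tested.

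**Figure D1:**
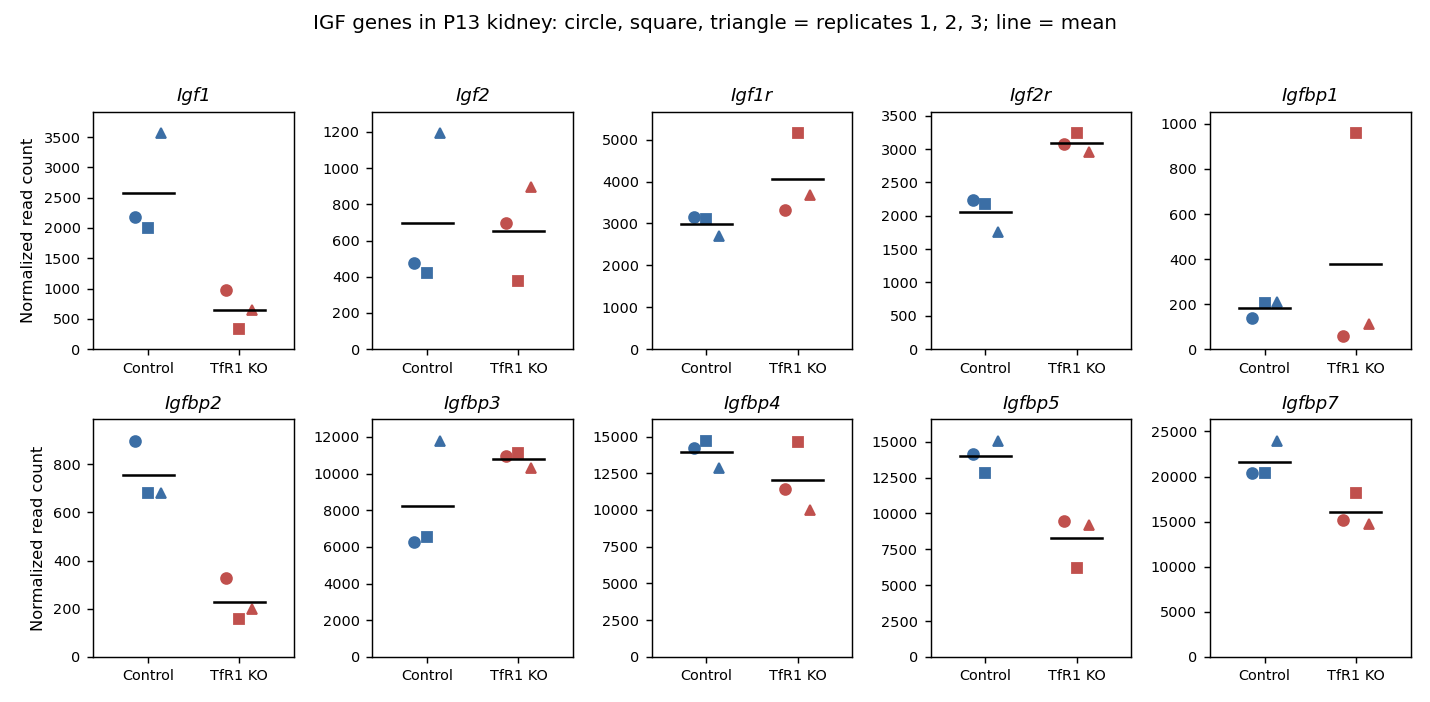
Normalized read counts (vertical axes, from 0) of the 10 IGF genes in each kidney, Control in blue and TfR1 knockout (KO) in red; circles, squares and triangles are replicates 1, 2 and 3 and lines are means of 3. For Igf1, Igfbp2 and Igfbp5 all knockout kidneys lie under all Control kidneys, for Igf2r they lie above, and in Igfbp1 a single knockout kidney lies far above the rest.

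The promoter sequences of 3 members that passed the test are shown first, because the HIF transcription factors, which low iron and low oxygen stabilize, bind a core that includes ACGTG. The window of Igf1 lies inside its gene and is not shown. They come from RefSeq (GRCm38.p6, another build than the counts) and hold the 250 bases before the annotated start of each gene, 5′ to 3′ on the gene's strand. Capitals mark ACGTG on either strand, the only form of the core that was searched. Where matches on both strands overlap they form CACGTG. The Igf2r window is chr17:12769707-12769956 (minus strand), that of Igfbp2 is chr1:72824230-72824479 (plus strand) and that of Igfbp5 is chr1:72874866-72875115 (minus strand).
Igf2r: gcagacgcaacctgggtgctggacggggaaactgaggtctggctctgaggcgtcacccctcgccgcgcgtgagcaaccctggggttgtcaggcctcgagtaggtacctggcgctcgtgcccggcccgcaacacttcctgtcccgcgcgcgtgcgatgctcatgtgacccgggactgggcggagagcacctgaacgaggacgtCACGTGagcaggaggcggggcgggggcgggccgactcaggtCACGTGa
Igfbp2: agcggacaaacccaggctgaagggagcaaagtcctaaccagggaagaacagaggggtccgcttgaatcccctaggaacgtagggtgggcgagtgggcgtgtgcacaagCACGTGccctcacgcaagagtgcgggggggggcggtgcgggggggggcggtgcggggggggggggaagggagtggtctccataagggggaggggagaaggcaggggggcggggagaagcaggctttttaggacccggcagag
Igfbp5: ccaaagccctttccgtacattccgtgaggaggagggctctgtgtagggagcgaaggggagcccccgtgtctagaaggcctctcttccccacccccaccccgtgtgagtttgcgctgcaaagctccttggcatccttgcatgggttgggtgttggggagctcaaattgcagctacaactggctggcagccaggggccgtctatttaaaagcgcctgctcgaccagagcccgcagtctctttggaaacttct
Igf2r, which rose, held CACGTG at 48 and at 7 bases before its start. Igfbp2, which fell, held it 142 bases before its start, and Igfbp5, which also fell, held no match. CACGTG was present in 6.02% of 32851 promoter windows of this length and was present 2 or more times in 0.429%. The shorter ACGTG was present in 16.6% of these windows and in 4 of the 14 annotated starts of the 10 members, namely those of Igf2r and Igfbp7, 1 of 2 for Igfbp2 and 1 of 4 for Igf2. CACGTG and the count of 2 are what the Igf2r window held, so their shares are a description and not a test. All of these are matches of letters and do not tell which transcription factor, if any, binds there. Binding was not measured.

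Igf1 (chromosome 10, 87321010 to 87399792, mm9) encodes the main growth factor of the postnatal period. The Control kidneys had 2187, 1998 and 3563 normalized counts and the knockout kidneys 969, 329 and 643, here and below in the order of replicates 1, 2 and 3. Every knockout kidney lay under every Control kidney, with the highest value in Control replicate 3 and the lowest in knockout replicate 2. The mean fell from 2583 ± 854 to 647 ± 320 (SD, n = 3 each), a log2 fold change of -1.996 (SE 0.40, DESeq2 adjusted p 2.12e-05, edgeR adjusted p 0.0350). Reads of the antisense gene Gm16176, which overlaps Igf1, cannot be told apart without strand. Leaving out any 1 library gave log2 fold changes from -2.41 to -1.68, and all 6 passed.

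Markers of other cells moved beside Igf1. Within each group, its kidneys ranked by Igf1 in the same order as by their summed stroma and smooth muscle markers, which were 49949, 48043 and 99552 in Control and 49063, 27172 and 44092 in knockout kidneys. In knockout kidneys Col1a1, Col3a1 and Lum had the order of Igf1, and Pdgfra, Pdgfrb and Acta2 did not. Pdgfra (2125, 3704 and 3517) and Pdgfrb (3475, 4910 and 4940) were lowest in knockout replicate 1, where Igf1 was highest. Of 6 stroma markers tested, 0 were higher and 2 lower by DESeq2 (Col3a1 and Lum, collagen and lumican of the matrix). Over all genes tested, 7.74% and 7.18% passed. By edgeR 0 of these markers passed after adjustment (3.22% and 2.80% of all genes). Col3a1 and Lum had an unadjusted edgeR p under 0.05, where 13.0% of all genes were lower. Taken relative to that sum, a measure added after the data were seen, Igf1 still did not overlap: its log2 ratio was -4.51, -4.59 and -4.80 in Control and -5.66, -6.37 and -6.10 in knockout kidneys. The mean difference was then -1.41, with an exact 2-sided permutation p of 0.1, the smallest that 3 against 3 allows. On the same scale Igfbp2 was lower in all knockout kidneys, Igf2 (0.67), Igf1r (1.09), Igf2r (1.27) and Igfbp3 (1.13) were higher in all of them, and the other 4 members overlapped. The collagen genes Col1a1 and Col3a1 made up most of the sum in every kidney, and a smaller sum raises the ratio of every gene. As undivided counts, Igf2 and Igfbp3 overlapped between the groups. In bulk tissue, fewer cells of a type and less RNA per cell cannot be told apart.

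**Figure D2:**
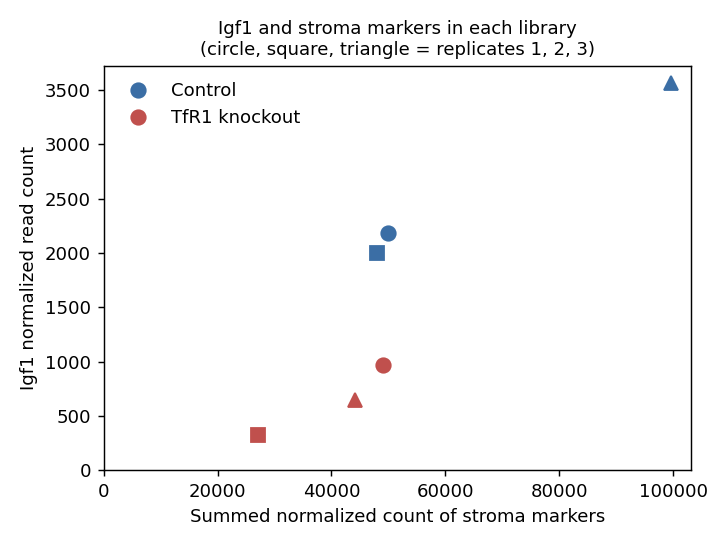
Igf1 normalized read count (vertical axis) against the summed normalized count of 7 stroma and smooth muscle markers (horizontal axis), 1 symbol per kidney. Control replicate 3 is far to the right at 99552, with the highest Igf1 count, and knockout replicate 2 is furthest left at 27172, with the lowest. Control replicates 1 and 2 and knockout replicates 1 and 3 have sums from 44092 to 49949. The sums are mostly Col1a1 and Col3a1 counts, and the part of stroma content in the Igf1 counts was not tested.

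Igf2 (chromosome 7, 149836673 to 149852721) encodes the fetal ligand. It had 473, 422 and 1193 normalized counts in Control and 697, 375 and 894 in knockout kidneys. The groups overlapped over nearly their whole range, and Control replicate 3 was the highest. The log2 fold change was -0.09 (SE 0.46, 95% interval -0.98 to 0.82, adjusted p 0.930), so that neither a rise nor a fall was detectable with this spread. It turned to 0.55 (adjusted p 0.358) without Control replicate 3. The antisense gene Igf2os, whose reads cannot be told apart without strand, had at most 12 counts in any library.

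The ratio of the ligands, which uses both counts of the same kidney, separated the groups. The log2 ratio of Igf1 to Igf2 was 2.21, 2.24 and 1.58 in Control and 0.47, -0.19 and -0.47 in knockout kidneys. Igf1 counts were thus above Igf2 counts in all Control kidneys and under them in 2 of 3 knockout kidneys. The difference was -2.07 (exact 2-sided permutation p 0.1, the smallest possible, and 0.15 after adjustment over 3 ratios). Counts of different genes also depend on gene length. Per transcript length (TPM, described below), Igf1 lay above Igf2 in every Control kidney and under it in every knockout kidney. The knockout values were 14.8, 4.29 and 10.3 TPM for Igf1 and 19.2, 8.84 and 25.8 TPM for Igf2.

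Igf2r (chromosome 17, 12875272 to 12962530) encodes the receptor that clears IGF-2 and sorts lysosomal enzymes. Its normalized counts were 2229, 2176 and 1761 in Control and 3071, 3236 and 2961 in knockout kidneys. The knockout kidneys lay close together and above all Control kidneys. Igf2r rose from 2055 ± 256 to 3089 ± 138, a log2 fold change of 0.59 (SE 0.16, DESeq2 adjusted p 0.00465). The call was lost by edgeR (adjusted p 0.0535) and by limma-voom (0.0528), and with any 1 library left out the DESeq2 adjusted p ran from 0.00885 to 0.0494. Reads of the antisense gene Airn, which overlaps Igf2r, cannot be told apart from its reads without strand.

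Igf1r (chromosome 7, 75097713 to 75371484), the signalling receptor, had 3166, 3113 and 2711 normalized counts in Control and 3323, 5153 and 3684 in knockout kidneys. All knockout kidneys were above all Control kidneys, and knockout replicate 2 was far above the other two. The log2 fold change of 0.44 (SE 0.22, 95% interval 0.0049 to 0.87) did not pass the test (adjusted p 0.177). It was 0.23 without knockout replicate 2, the lowest of the leave-one-out values.

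The binding protein genes did not move as a block. Igfbp2 (chromosome 1, 72871077 to 72899048) encodes a binding protein abundant in fetal tissue. It had 896, 682 and 681 normalized counts in Control and 328, 156 and 200 in knockout kidneys, with no overlap. Its mean was 753 ± 124 in Control and 228 ± 89.5 in knockout kidneys (log2 fold change -1.72 with an SE of 0.31, DESeq2 adjusted p 1.83e-06, edgeR adjusted p 0.0210), and all 6 fits without 1 library passed, from -2.08 to -1.51. Relative to the stroma markers the difference was -1.11, again with no overlap.

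Igfbp5 (chromosome 1, 72904506 to 72921458) encodes a binding protein that also attaches to extracellular matrix. It had 14154, 12804 and 15055 normalized counts in Control and 9445, 6171 and 9208 in knockout kidneys, and the groups did not overlap. Its mean was 14004 ± 1133 in Control and 8275 ± 1826 in knockout kidneys (log2 fold change -0.76 with an SE of 0.22, DESeq2 adjusted p 0.00622). The call was lost by edgeR (adjusted p 0.0796), by limma-voom (0.0662) and without Control replicate 1 (0.0719). Relative to the summed stroma markers the groups overlapped and the difference was -0.11.

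Igfbp2 and Igfbp5 lie tail to tail on chromosome 1 with a gap of 5457 bases and no other coding gene between them. Both fell, by different amounts: the log2 ratio of Igfbp2 to Igfbp5 was -3.98, -4.23 and -4.47 in Control and -4.85, -5.30 and -5.53 in knockout kidneys. The difference of -1.001 had the smallest exact permutation p that the design allows, 0.1 (adjusted 0.15).

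Igfbp3 (chromosome 11, 7106089 to 7113926) encodes the main carrier of IGFs in blood. Its normalized counts were 6283, 6557 and 11779 in Control and 10976, 11119 and 10298 in knockout kidneys. The knockout kidneys were alike and lay above Control replicates 1 and 2 and under Control replicate 3. The log2 fold change was 0.40 (SE 0.28, adjusted p 0.362). Without Control replicate 3 it was 0.75 (DESeq2 adjusted p 2.12e-06), so 1 library decided whether Igfbp3 passed. Summed endothelial markers were also highest in that kidney among the Control kidneys (31230, against 20472 and 19445) and ran from 21249 to 29518 in knockout kidneys, and their part in the Igfbp3 counts was not tested.

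Igfbp1 (chromosome 11, 7097785 to 7102549) encodes a binding protein made chiefly in liver and induced by fasting and low oxygen. It had 138, 205 and 208 normalized counts in Control and 59.7, 958 and 114 in knockout kidneys. Knockout replicate 2 was far above all other kidneys, and the other 2 knockout kidneys were under all Control kidneys. The log2 fold change of 1.04 (SE 1.13, adjusted p 0.591) became -1.07 (adjusted p 0.0528) without knockout replicate 2. The 5 summed hepatocyte markers were also highest in that kidney, at 18592 normalized counts, against 10695 and 5526 in the other knockout kidneys and 5164 to 5831 in Control. Most of the 18592 was Ttr (15134). Ttr, Apoa1 and Cyp2e1 were each highest in that kidney. Alb was highest in knockout replicate 1 (433, against 371 in knockout replicate 2), and Serpina1a was highest in Control replicate 1. By DESeq2, 4 of these markers were called higher and 0 lower, by edgeR 2 and 0 and by limma-voom 0 and 0 (4 and 1 at an unadjusted p under 0.05 by each tool). Over all genes tested, 7.74% and 7.18% were called by DESeq2 and 3.22% and 2.80% by edgeR. The shares at the unadjusted threshold are given above. The part of these markers in the Igfbp1 count was not tested.

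Igfbp1 and Igfbp3 also lie tail to tail, with a gap of 3539 bases and no coding gene between them. The log2 ratio of Igfbp1 to Igfbp3 ran from -5.83 to -5.00 in Control and from -7.52 to -3.54 in knockout kidneys. The groups overlapped (difference -0.41, exact permutation p 0.8), and the sign turned without knockout replicate 1 (0.43).

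Igfbp4 (chromosome 11, 98902558 to 98913969), which encodes a binding protein cut by pappalysin, had 14232, 14694 and 12837 normalized counts in Control and 11440, 14601 and 10022 in knockout kidneys. The groups overlapped through knockout replicate 2. The log2 fold change was -0.21 (SE 0.20, 95% interval -0.60 to 0.17, adjusted p 0.516).

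Igfbp7 (chromosome 5, 77778265 to 77837070) encodes a secreted protein of vessels and epithelium. It had 20437, 20430 and 23942 normalized counts in Control and 15167, 18212 and 14786 in knockout kidneys. All knockout kidneys were under all Control kidneys, but the log2 fold change of -0.43 (SE 0.17) did not pass (adjusted p 0.0615). It passed when counts were scaled by library total (-0.55, adjusted p 0.0057) or upper quartile (-0.48, 0.0271), and without knockout replicate 2 (-0.52, 0.0132). The Polr2b gene overlaps Igfbp7 on the other strand.

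**Figure D3:**
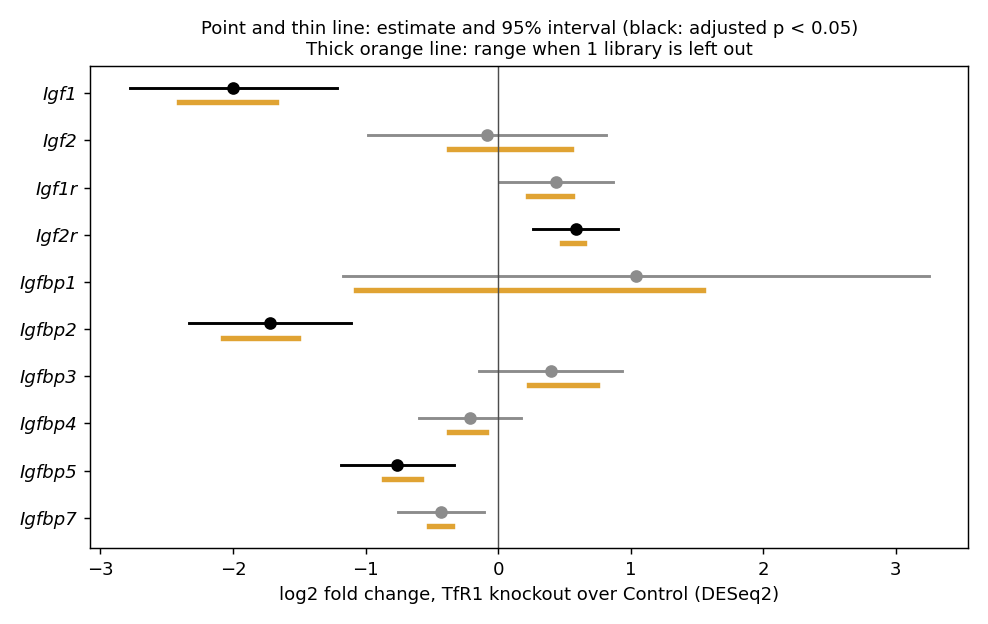
Log2 fold change of TfR1 knockout over Control (horizontal axis) for each IGF gene, with its 95% interval as a thin line (black where the adjusted p is under 0.05) and the range over the 6 fits that leave out 1 library as a thick orange line. The orange ranges of Igf2 (-0.37 to 0.55) and Igfbp1 (-1.07 to 1.55) cross 0, and those of the other 8 genes stay on 1 side.

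Levels of different genes were compared per transcript length, as TPM, counts divided by exon length and scaled to the same total in each library. In Control kidneys the order from the top was Igfbp7, with 2724 ± 357 TPM, then Igfbp4 with 898 ± 30.3, Igfbp3 with 404 ± 168 and Igfbp5 with 357 ± 42.1 TPM. The libraries of Igfbp3 (305 to 598 TPM) and Igfbp5 (314 to 398 TPM) overlapped, so these neighbours did not differ beyond their spread. Igf1r followed with 102 ± 5.64 TPM, then Igfbp2 with 62.2 ± 10.2, Igf1 with 40.0 ± 14.8, Igf2r with 33.1 ± 3.20, Igf2 with 19.6 ± 12.9 and Igfbp1 with 18.4 ± 4.13 TPM. From Igfbp2 down, each gene's libraries overlapped those of the next. Within a kidney, Igfbp2 lay above Igf1 in every Control kidney, and the order of the later neighbours differed between Control kidneys. Igfbp7, Igfbp4, Igfbp3 and Igfbp5 lay above both ligands in every kidney, while Igfbp1 lay under Igf1 in every Control kidney.

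In knockout kidneys the first 5 places were the same, and Igf1 dropped from place 7 to place 10, at 9.79 ± 5.27 TPM. Igf2r moved from place 8 to 6 (47.8 ± 2.98 TPM) and Igfbp2 from 6 to 8 (18.3 ± 8.06 TPM). Igfbp1 came to place 7 through knockout replicate 2 alone, which held 81.4 TPM against 5.93 and 11.8 in the other knockout kidneys. The ranks were the same with the length of the longest transcript in place of all exons.

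**Figure D4:**
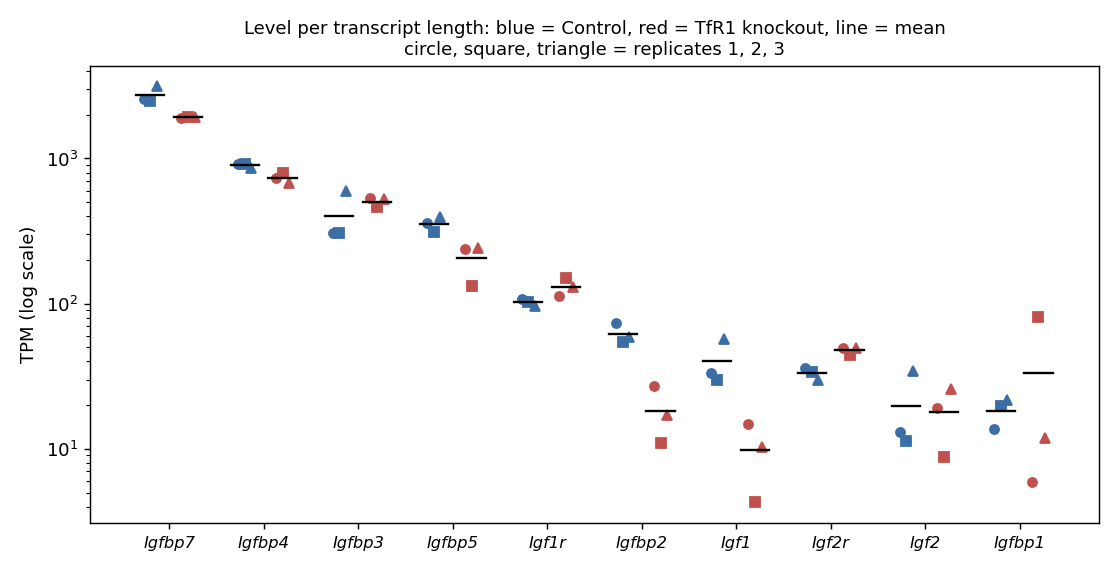
Level of each IGF gene in TPM (vertical axis, log scale), ordered by the Control mean, with Control kidneys in blue and TfR1 knockout kidneys in red; lines are means of 3. Igfbp7 is at the top in both groups, and Igf1 falls from a Control mean of 40.0 to a knockout mean of 9.79 TPM.

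The 6 binding protein genes summed to 4224, 4091 and 5072 TPM in Control and to 3432, 3431 and 3402 TPM in knockout kidneys, with no overlap and little spread in the knockout. Igf1 and Igf2 together gave 46.6, 40.9 and 91.5 TPM in Control and 34.0, 13.1 and 36.1 TPM in knockout kidneys. Within the binding protein sum, Igfbp7 took 61.0 ± 0.689% in Control and 56.3 ± 0.899% in knockout kidneys. The share of Igfbp3 was 8.84 ± 2.55% in Control and 14.7 ± 1.16% in knockout kidneys, and its libraries did not overlap on this scale (7.22 to 11.8% and 13.4 to 15.5%). Shares of a sum move against each other, so a higher share of Igfbp3 is no test of its own level.

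Other genes of the IGF pathway were taken as 6 lists with 67 genes, of which 65 were tested. Among them 11 rose and 4 fell by DESeq2 (7.74% and 7.18% of all genes tested), with a median log2 fold change of 0.08. By edgeR 6 rose and 2 fell (3.22% and 2.80% of all genes). The same shares stand beside the counts of each pathway and marker list below. The 7 genes of binding protein processing moved most often: 4 rose and 2 fell, with a median of 1.12. Of the genes named below, all that passed are given.

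Pappa2 encodes pappalysin-2, which cuts IGFBP-3 and IGFBP-5. It had 143, 257 and 101 normalized counts in Control and 1443, 1773 and 2712 in knockout kidneys. Every knockout kidney was several times above every Control kidney (log2 fold change 3.56, SE 0.38, DESeq2 adjusted p 3.24e-18, edgeR adjusted p 0.00505). Pappa encodes pappalysin-1, which cuts IGFBP-4 and other binding proteins, and had 372, 427 and 378 normalized counts in Control and 877, 2194 and 1390 in knockout kidneys (log2 fold change 1.92, SE 0.33, DESeq2 adjusted p 4.60e-07, edgeR adjusted p 0.0182). Adamts1, a matrix protease, rose by 1.90 on the log2 scale (SE 0.20, DESeq2 adjusted p 3.20e-19, edgeR adjusted p 0.00384). Stc1 encodes stanniocalcin-1, an inhibitor of pappalysins, and rose by 1.12 (SE 0.32, DESeq2 adjusted p 0.00561, edgeR adjusted p 0.0652).

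The proteases that fell were Htra1 and Htra3, serine proteases of the matrix. Htra1 had 1335, 1241 and 1119 normalized counts in Control and 729, 779 and 778 in knockout kidneys (log2 fold change -0.69, SE 0.15, DESeq2 adjusted p 0.000178, edgeR adjusted p 0.0235). Htra3 had 1066, 1048 and 2473 in Control and 745, 174 and 580 in knockout kidneys (log2 fold change -1.61, SE 0.52, DESeq2 adjusted p 0.0176). The Htra3 call was lost by edgeR (adjusted p 0.124), by limma-voom and without Control replicate 3 (0.149). Stc2, a second stanniocalcin, overlapped between groups (log2 fold change 0.07).

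**Figure D5:**
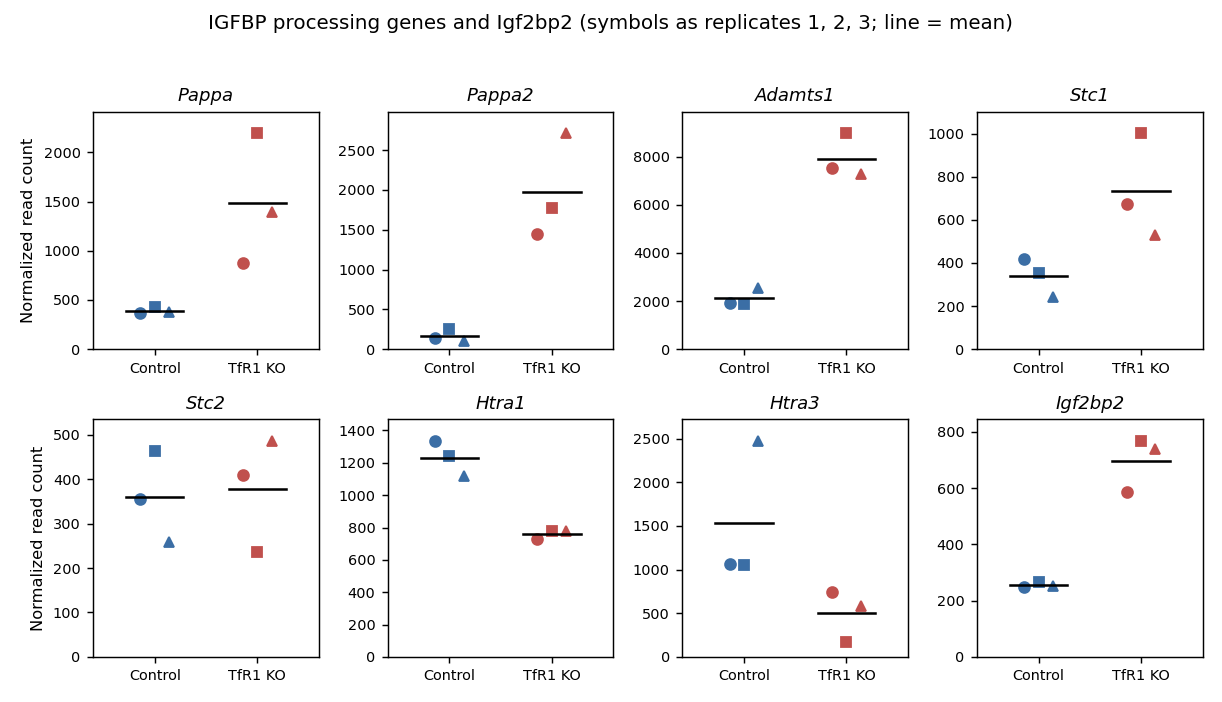
Normalized read counts (vertical axes, from 0) of the 7 genes of IGF binding protein processing and of Igf2bp2, Control in blue and TfR1 knockout in red, lines as means of 3. Pappa, Pappa2, Adamts1, Stc1 and Igf2bp2 lie higher in all knockout kidneys, Htra1 and Htra3 lie lower, and Stc2 overlaps.

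Of 7 other genes of the family tested, 2 rose and 0 fell. Igf2bp2, which encodes an RNA-binding protein of Igf2 and other transcripts, had 249.8, 264.5 and 250.8 normalized counts in Control and 587, 768 and 740 in knockout kidneys (log2 fold change 1.45, SE 0.19, DESeq2 adjusted p 4.60e-12, edgeR adjusted p 0.00505). Insr, the insulin receptor, had 2360, 2320 and 2175 in Control and 2861, 4945 and 3132 in knockout kidneys, highest in knockout replicate 2 as for Igf1r. Its log2 fold change of 0.67 (SE 0.25, DESeq2 adjusted p 0.0455) passed in 1 of 6 fits without 1 library and not by edgeR (adjusted p 0.110). Igfbp6, a binding protein that prefers IGF-2, overlapped between groups (log2 fold change 0.74, adjusted p 0.307).

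In the growth hormone list, 1 of 8 genes rose and 0 fell. Ghr, the growth hormone receptor through which Igf1 is induced, had 2300, 2248 and 2282 normalized counts in Control and 1895, 2327 and 1819 in knockout kidneys (log2 fold change -0.18, SE 0.16, adjusted p 0.514). The gene that rose was Socs3, a feedback inhibitor of cytokine and growth hormone signalling, with 91.5, 84.5 and 193 normalized counts in Control and 1969, 573 and 388 in knockout kidneys (log2 fold change 2.99, SE 0.58, DESeq2 adjusted p 9.64e-06, edgeR adjusted p 0.0455). The call was lost by limma-voom (adjusted p 0.0819), and the log2 fold change was 1.97 without knockout replicate 1, still past the DESeq2 threshold. Summed macrophage markers were also higher, at 6048 to 9196 normalized counts in knockout and 2695 to 4514 in Control kidneys. By DESeq2, 5 of these 8 markers rose and 0 fell (by edgeR 4 and 0), and their part in the IGF genes was not tested.

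Among 25 signalling genes tested, 4 rose and 0 fell by DESeq2, and 1 rose by edgeR. Irs2, an adaptor of the insulin and IGF receptors, rose by 1.53 on the log2 scale (SE 0.39, DESeq2 adjusted p 0.00153, edgeR adjusted p 0.0576). Eif4ebp1, a translation inhibitor held in check by mTOR, rose by 1.26 (SE 0.26, DESeq2 adjusted p 4.77e-05, edgeR adjusted p 0.0262). Foxo3 (0.97, DESeq2 adjusted p 0.0386) and the kinase gene Mtor (0.46, DESeq2 adjusted p 0.0159) lost the call by edgeR (adjusted p 0.118 and 0.0715), and passed in 2 and 1 of the 6 fits without 1 library. The other 21 genes, with the PI3K and AKT genes among them, did not pass.

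Imprinted growth genes gave 0 higher and 2 lower of 11 tested, with a median log2 fold change of -0.45. Cdkn1c, an imprinted cell cycle inhibitor, had 7113, 6567 and 11233 normalized counts in Control and 1540, 901 and 1360 in knockout kidneys (log2 fold change -2.71, SE 0.30, DESeq2 adjusted p 1.63e-17, edgeR adjusted p 0.00505). Mest fell by 1.55 (SE 0.52, DESeq2 adjusted p 0.0259) and lost the call by edgeR (adjusted p 0.133), without Control replicate 3 and without knockout replicate 2. H19, the noncoding RNA next to Igf2 that shares its control region, had 664, 643 and 1611 normalized counts in Control and 857, 113 and 433 in knockout kidneys and overlapped (log2 fold change -1.06, adjusted p 0.256). Without knockout replicate 1 it was -1.83 and passed (DESeq2 adjusted p 0.0138). Control replicate 3 was the highest Control kidney for Igf1, Igf2, H19, Cdkn1c and Mest, and for Plagl1, Peg3, Grb10, Ndn and Dcn of the imprinted list. The rest of that list went otherwise. Dlk1 (518, 77.3 and 173) and Meg3 (1721, 476 and 1170) were highest in Control replicate 1. Phlda2 (60.2, 65.4 and 18.3) was lowest in Control replicate 3.

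The mannose 6-phosphate list, which holds the genes that tag and sort lysosomal enzymes together with Igf2r, gave 0 genes higher and 0 lower of 7 tested by DESeq2 and likewise by edgeR. At an unadjusted p under 0.05, DESeq2, edgeR and limma-voom each had 0 higher and 1 lower, beside the shares of all genes given above for that threshold. M6pr, which encodes the small receptor for the same tag, had a log2 fold change of -0.02 (adjusted p 0.955), beside 0.59 for Igf2r.

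The genes whose counts most resembled those of Igf2r over the 6 libraries, on the log2 scale and among 12113 genes with a mean of at least 100, were Agpat9 (Pearson r 0.999), Mtor (0.997) and Txnrd1 (0.997). Those nearest to Igf1 were Thra (1.00), Fam111a (0.999) and Ncapg (0.999). Thra encodes a thyroid hormone receptor and Ncapg a subunit of condensin. These values were picked as the highest of many over 6 libraries that share 2 groups, and they are a description of likeness.

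Tubule markers moved in the same kidneys. All 6 thick ascending limb markers (5 by edgeR) and all 3 distal tubule markers (3 by edgeR) fell by DESeq2, with sums of 13956 to 26572 and 736 to 1783 normalized counts in knockout kidneys, against 51175 to 115639 and 11272 to 22529 in Control. Of 8 proximal tubule markers, 1 rose and 3 fell by DESeq2, and 1 and 1 by edgeR. Collecting duct markers gave 2 higher and 1 lower of 5 by DESeq2 (1 and 1 by edgeR), and podocyte markers 1 higher and 0 lower of 5 by both. Endothelial markers gave 1 and 0 of 8 by DESeq2 (0 and 0 by edgeR, 1 and 0 at an unadjusted p under 0.05), and nephron progenitor markers 1 and 1 of 5 (1 and 0 by edgeR). The erythroid markers Hbb-b1, Hba-a1 and Hba-a2 and the stroma marker Ren1 were at 3 counts or fewer in all libraries. Of the other 2 erythroid markers 0 rose and 1 fell by both tools. The 1 that fell was Slc4a1, which is also in the collecting duct list and is the 1 lower there. Alas2 did not pass (log2 fold change -0.03, DESeq2 adjusted p 0.982). Within Control, replicate 3 had the lowest thick ascending limb sum and the highest Igf1, Igf2 and Igfbp3 counts. The part of tubule content in the member counts was not tested.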

How the data were processed

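Poly-A RNA of 6 whole kidneys was sequenced as single-end reads. Per the labels and the study's methods, the authors used Trimmomatic, TopHat2 2.0.11 (mm9) and HTSeq on uniquely aligned reads, and the deposited values are unnormalized counts per gene. Genes with near-identical copies are undercounted in this way. The strand setting of the counting is not given in the sources used here. The tables hold 24422 genes, and 16591156 to 22898008 counts per library make counting error small beside the spread of 3 libraries per group.

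Groups and replicate numbers came from the labels. DESeq2 1.42.0 in R 4.3.3 (Wald test, median-ratio size factors, independent filtering tuned at 0.05, which set a lowest mean of 3.51) followed the study's choice of tool, with Benjamini-Hochberg adjustment over 16509 genes. Normalized counts are the raw counts divided by the size factors. Outlier filtering left 29 genes without a p-value. Alternatives were edgeR 4.0.16 (quasi-likelihood, TMM), limma-voom (limma 3.58.1), total-count and upper-quartile size factors, a minimum of 10 counts in 3 libraries, no filter, a replicate block and fits without 1 library. Because edgeR was the stricter test, its adjusted p stands beside the calls of members and pathway genes, and its counts beside those of the marker lists. TPM used exon lengths of GENCODE on NCBIM37, which is mm9, matched for 20791 genes. The authors' own annotation may differ, and a longer gene model lowers a gene's TPM.

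The members, the pathway and marker lists and the tests were chosen with earlier results of these data known. Named genes are all members, the called pathway gene with the largest change in each list and direction, Igfbp6, Insr, H19 and Ghr, and the 3 genes most like the called members with the largest rise and fall. The other pathway genes that passed, Stc2, M6pr and the single marker genes were named after their values were seen. So were the genes of the imprinted list that did not pass, except H19. No pair of libraries agreed within counting noise. Control replicates 1 and 2 were the most alike, with a chi-square per degree of freedom of 10.6. The next closest pair, knockout replicates 1 and 3, had 37.9.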

Additional observations from a re-analysis of the deposited data

How the results depend on the processing

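The fold changes of the 10 members were recomputed under 13 alternatives each. Of the 130 values, 115 kept their direction and side of the threshold, 5 fell short of it, 4 newly passed it and 6 changed sign. The count of members higher in TfR1 knockout kidneys, 1 by DESeq2, was 0 by edgeR, 0 by limma-voom and 0 with a 2-fold threshold, and it ran from 1 to 2 with 1 library left out, where Igfbp3 passed without Control replicate 3. At an unadjusted p under 0.05, edgeR and limma-voom each had 1 member higher and 4 lower (12.8% and 13.0% of all genes by edgeR, 12.3% and 13.7% by limma-voom). The count of members lower, 3 by DESeq2, ran from 2 to 4. For the other pathway genes, the 11 higher became 6 by edgeR and 5 by limma-voom, and ran from 8 to 12 with 1 library left out. The 4 lower became 2 by edgeR and 2 by limma-voom, and ran from 3 (without knockout replicate 2) to 8 (without knockout replicate 1). Igf2 changed sign by limma-voom (0.046) and ran from -0.37 to 0.55 with 1 library left out. Igfbp1 changed sign by limma-voom (-0.062) and ran from -1.07 to 1.55, and the Igfbp1 to Igfbp3 ratio ran from -1.57 to 0.43. Relative to the stroma markers, an alternative chosen after seeing the data, the differences of Igf2 (0.67), Igfbp4 (0.45) and Igfbp7 (0.24) had the opposite sign. Scaling by library total moved the median log2 fold change of all genes to -0.10. The causes were not tested. For the other named genes, 246 of 299 recomputed fold changes kept their direction and side, 51 fell short of the threshold, 2 newly passed and 0 changed sign. Of the 20 mean TPM values recomputed with the longest transcript, 9 moved by more than 1 SD.

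The groups share replicate numbers, but same-numbered kidneys did not deviate together (correlations -0.04, 0.05 and 0.09), so the numbers were not taken as pairs. With the replicate number as a block, 1 member was higher and 3 lower, Igfbp1 was at -0.018, and 10 pathway genes were higher and 7 lower. Under the block H19 passed as lower (-1.37, DESeq2 adjusted p 0.00682), and Mtor (0.127) and Thra (0.0797) no longer passed.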
